A study of Homo sapiens with 18 samples.

Results

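The genes of the proteasome were followed through 9 conditions of MDA-MB-231 cells, a basal, mesenchymal-like line of triple-negative breast cancer. Members were taken by symbol alone, as genes named PSMA, PSMB, PSMC, PSMD, PSME, PSMF or PSMG followed by digits only, and 48 of the 60603 annotated genes were found. In the inducible libraries 45 of the 48 passed the filter on low counts and were tested, and in the transient libraries 44 of the 48 were. PSMA8, PSMB9 and PSMB11 were tested in neither, and PSMB8 was not tested in the transient libraries.

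The proteasome degrades proteins that carry chains of ubiquitin. Its 20S core is a barrel of alpha rings (PSMA genes) that control entry and beta rings (PSMB genes) that cut, and its 19S cap binds ubiquitin chains, removes them and unfolds the substrate through a ring of ATPases (PSMC genes) held by non-ATPase subunits (PSMD genes). In the immunoproteasome, which interferon is known to induce and which favours peptides for MHC class I, PSMB8, PSMB9 and PSMB10 take the places of the cutting subunits PSMB5, PSMB6 and PSMB7. PSME1 and PSME2 form PA28 alpha-beta, an ATP-independent cap that is also interferon-inducible, while PSME3 forms the nuclear PA28 gamma ring and PSME4 is the nuclear activator PA200. PSMF1 is an inhibitor of the core, and PSMG genes encode chaperones that assemble it. Doxorubicin, an anthracycline, poisons topoisomerase II and breaks DNA, and ZMYND8 is a reader of modified histones.

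RNA was measured by sequencing in 18 libraries, 2 biological replicates per condition by the labels. In the transient experiment, 6 libraries came from cells transfected with vehicle or empty vector (control), from such cells given 0.6 µM doxorubicin for 48 h, and from cells labelled as transfected with ZMYND8 and given the same doxorubicin. In the dosed cells transfection came 24 h before doxorubicin. In the inducible experiment, 12 libraries came from a line carrying lentiviral GFP and a line carrying lentiviral ZMYND8, all with 250 ng/mL doxycycline to switch the construct on, without doxorubicin or with 0.6 µM for 6 h or 48 h. Each construct was carried by 1 G418-selected line, so the effect of the construct and the difference between lines cannot be told apart. RNA per cell was not measured, and a lower level cannot be told apart from fewer cells with the gene active.

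Total counts ran from 18300628 to 23724398 in the inducible libraries and from 5729294 to 5972396 in the transient ones, except 24713822 in the second transient doxorubicin library. Levels are given as CPM, counts scaled to a common library total after TMM normalization, and between genes only as CPM per kilobase of exon. ZMYND8 itself was at 209.1 and 208.0 CPM in the GFP line and at 921.5 and 926.8 CPM in the ZMYND8 line without doxorubicin. In the transient libraries it was at 219.0 and 198.5 CPM in control, 182.0 and 122.6 CPM in doxorubicin, and 159.8 and 124.9 CPM in the libraries labelled ZMYND8, which goes against that label, so these are called "labelled ZMYND8" throughout. The second transient doxorubicin and the second labelled ZMYND8 library were closest of all pairs of libraries and may hold the same sample, with a chi-square divided by its degrees of freedom of 1.39, against 10.7 to 22.7 within transient conditions. Antisense genes lying within the exons of an expressed gene held, at the median, 1.5 to 1.7 times the read density of that gene in the transient libraries and 0.0631 to 0.104 times in the inducible ones, so transient counts do not separate the strands. VIM (1921.8 to 4494.3 CPM) and CD44 (420.2 to 1344.5 CPM) were high in every library, while ESR1 and PGR, which triple-negative cells lack, did not pass 0.691 and 0.799 CPM, and of the blood cell markers CD3E reached 0.328 CPM, PTPRC 3.95 CPM and CD14 19.8 CPM, while HLA-DRA, listed at 0, lies in the MHC region of chromosome 6, where counts are lost, and cannot be read. ERBB2 was at 73.2 to 166.0 CPM in every library. The epithelial markers were present in part, CDH1 at 0.58 to 21.7 CPM with its highest levels at 48 h, and EPCAM at 27.0 to 37.4 CPM in the GFP line against 6.89 to 11.5 CPM in the ZMYND8 line.

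Levels per kilobase are over an exon length that sums all annotated isoforms, so their order depends in part on the annotation. That length was 9123 bases for PSMD6, 7311 for PSMD14 and 2219 for PSMB1, against 1362, 1567 and 891 bases in their main transcripts. By this measure the subunits were far from equal in level. Over the 12 inducible libraries the order of the means per kilobase began with PSMA7, an alpha ring subunit, at 198.2 CPM per kb (range 153.0 to 241.0). PSMD2, the 19S base scaffold that docks ubiquitin shuttles, followed at 148.5 (range 111.1 to 184.8, which overlaps that of PSMA7). Next were the ATPase PSMC3 at 120.8 and the beta subunit PSMB3 at 115.2. PSMC3 and PSMB3 overlapped in range (98.1 to 145.5 and 92.7 to 135.8), as did PSME1, PSMB4, PSMB7 and PSMB1, whose means lay between 100.9 and 103.2 CPM per kb. The catalytic constitutive genes were at 102.1 (PSMB7), 89.9 (PSMB6) and 75.1 CPM per kb (PSMB5). PSMB10, the immunoproteasome counterpart of PSMB7, stood at 11.9 CPM per kb of countable reads.

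At the lower end, several levels are bounded by how the reads could be counted. PSMA6 (0.783 CPM per kb), PSMA2 (1.23) and PSMA1 (8.96) encode alpha ring subunits that every core contains, and 81.4%, 54.5% and 67.0% of their main transcripts lie under a read-through gene on the same strand, where pairs assigned to both genes are left out of the counts. PSMB10 (56.1%) and the 19S chaperone gene PSMD9 (28.8%) share this overlap, and 21.3% of the 50-base stretches in the exons of the ATPase gene PSMC1 recur elsewhere in the genome. For these 6 genes the level is a level of countable reads and understates the level of the gene by an unknown amount. The core chaperone gene PSMG4 stood at 2.32 CPM per kb over a summed exon length of 10418 bases, against 785 in its main transcript.

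**Figure D1:**
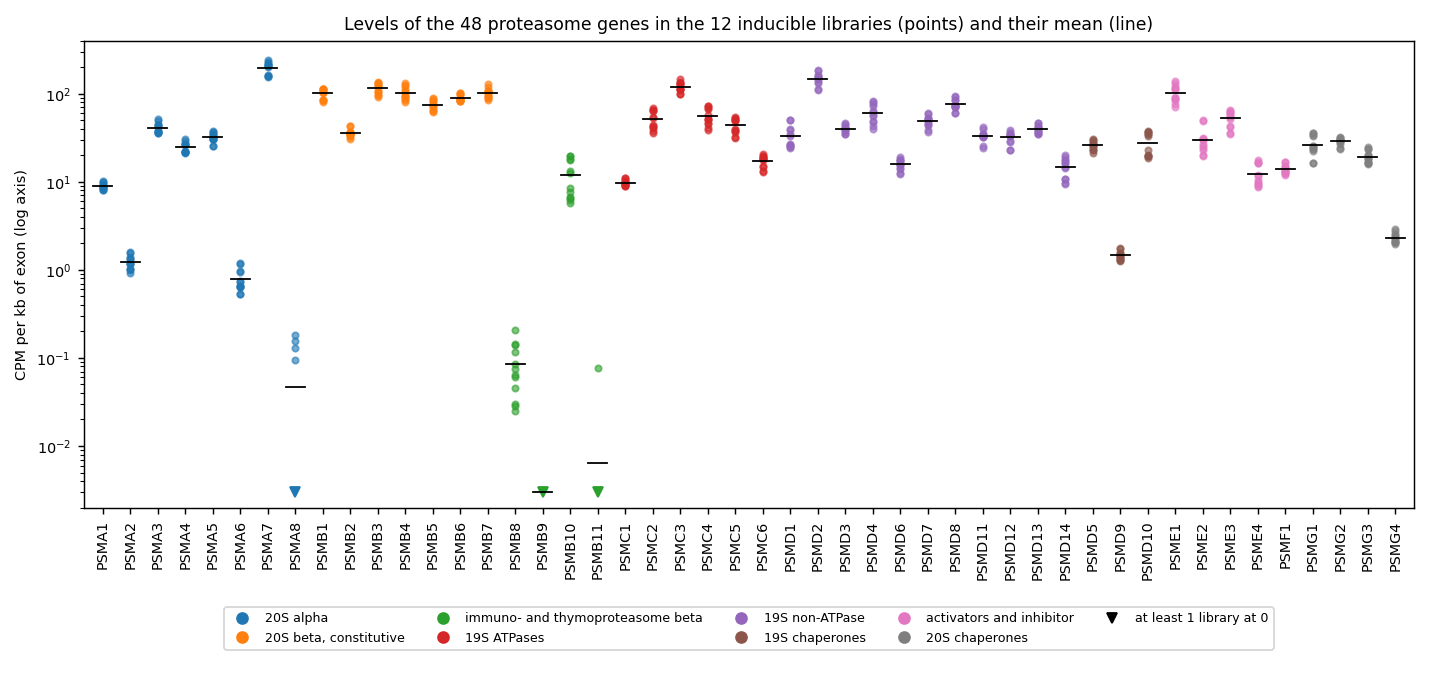
Level of each of the 48 members (x axis, coloured by role) in CPM per kb of exon (log y axis) in the 12 inducible libraries, with each point 1 library, each line the mean and a triangle where at least 1 library was at 0. PSMA7 has the highest mean (198.2 CPM per kb), with a range that overlaps that of PSMD2, and PSMB9 is at 0 in every library.

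Of the immunoproteasome genes, PSMB8 and PSMB9 were listed at or near 0 and PSMB10 was measured. PSMB8 (ENSG00000204264.11) lies on chromosome 6 at 32840717 to 32844679 in hg38, minus strand, and PSMB9 (ENSG00000240065.8) beside it at 32844136 to 32859851, plus strand. PSMB8 had 3 and 1 counts in control, 3 and 17 in transient doxorubicin and 6 and 6 in labelled ZMYND8. In the inducible libraries it had 8 and 5 counts in GFP, 2 and 4 at 6 h, 11 and 12 at 48 h, then 4 and 2, 2 and 3, and 18 and 7 counts in the same conditions of the ZMYND8 line. Its highest level was 1.01 CPM. PSMB9 had 0 counts in all 18 libraries, and 3 counts, the limit that a count of 0 allows, correspond to 0.121 to 0.524 CPM depending on the library. Intervals and limits of this kind cover counting error only.

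A low count of either gene cannot be read as a low expression. Both lie in the MHC region, where 12.5% of 152 protein-coding genes between 29 and 33 Mb of chromosome 6 reached 1 CPM in the transient libraries and 9.87% in the inducible ones, against 61.7% and 61.4% of the 886 on the rest of that chromosome. CSNK2B, FLOT1, ABCF1 and GNL1, genes that most cells use, had 0 to 4 counts there in every library, as did RPS18 just beyond that window, while BAG6 had 12 to 114 counts and TUBB 882 to 8856, so the loss was not complete (these were chosen after their values were seen). All 50-base stretches of the exons of PSMB8 and PSMB9 recur on alternative contigs of the assembly, as do those of PSMB3, which was counted normally. The cause of the loss was not tested. The thymus-specific PSMB11 had 2 counts in 1 library, and PSMA8, an alpha subunit known from the testis, had 4 and 7 counts in GFP at 48 h, 6 and 8 in ZMYND8 at 48 h, 6 in 1 transient doxorubicin library and 0 in the others.

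PSMB10 (ENSG00000205220.12, chromosome 16, 67934506 to 67936864, minus strand) separated the 2 lines in every condition. It was at 29.8 and 29 CPM in GFP, 31.5 and 31.8 CPM at 6 h and 21.8 and 20.6 CPM at 48 h. In the ZMYND8 line it was at 10.1 and 9.28 CPM, then 12.6 and 13.8 CPM at 6 h and 11.1 and 10.6 CPM at 48 h, so that the highest ZMYND8 library lay below the lowest GFP library. The transient libraries were at 16.5 to 25.4 CPM, but they were scaled separately and do not separate the strands, so they are not ranked against the lines. Per kilobase, PSMB10 amounted to 0.215 and 0.200 of its constitutive counterpart PSMB7 in GFP, 0.205 and 0.198 at 6 h, and 0.142 and 0.143 at 48 h. In the ZMYND8 line this ratio was 0.0572 and 0.0532, then 0.0602 and 0.0708, and 0.0636 and 0.0628, and in the transient libraries it ran from 0.103 to 0.130. Since 56.1% of the main transcript of PSMB10 lies under a read-through gene, these ratios are too low by an unknown amount and describe differences between libraries only.

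The constitutive catalytic genes moved over a narrower range. PSMB5, the chymotrypsin-like subunit, was at 135.2 and 132.9 CPM in GFP, 152.6 and 147.0 CPM at 6 h and 156.4 and 146.7 CPM at 48 h, and at 112.6 and 109.1, 129.5 and 131.4, and 120.7 and 116.3 CPM in the ZMYND8 line. PSMB6, the caspase-like subunit, was at 125.8 and 118.9, 121.5 and 120.4, and 127.8 and 119.6 CPM in the GFP line and at 123.8 and 125.2, 149.4 and 146.7, and 142.8 and 139.0 CPM in the ZMYND8 line. PSMB7, the trypsin-like subunit, was at 152.0 and 159.0, 169.1 and 176.7, and 167.9 and 158.3 CPM in the GFP line and at 193.4 and 192.0, 230.6 and 213.9, and 191.2 and 186.2 CPM in the ZMYND8 line. The lines did not overlap for PSMB5, which was lower with ZMYND8 throughout, nor for PSMB7, which was higher. In the transient libraries PSMB5 ran from 92.2 to 122.1 CPM, PSMB6 from 80.6 to 119.5 CPM and PSMB7 from 144.2 to 237.2 CPM, with the control libraries of each gene inside or reaching into the range of the dosed ones.

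The PA28 alpha-beta partners, which sit in 1 heteroheptamer, moved apart. PSME1 (chromosome 14, 24136163 to 24138967, plus strand) was at 234.7 and 245.9 CPM in GFP, 216.2 and 199.5 CPM at 6 h and 207.2 and 201.6 CPM at 48 h, and at 151.3 and 156.1, 160.3 and 164.4, and 136.8 and 124.5 CPM in the ZMYND8 line. PSME2 (chromosome 14, 24143362 to 24147570, minus strand) was at 95.6 and 91.1, 107.5 and 109.0, and 179.9 and 175.0 CPM in the GFP line and at 70.2 and 71.9, 86.1 and 83.2, and 113.9 and 110.9 CPM in the ZMYND8 line. The ratio of PSME2 to PSME1 per kilobase went from 0.202 and 0.184 in GFP through 0.247 and 0.271 at 6 h to 0.431 and 0.430 at 48 h, and from 0.230 and 0.228 through 0.266 and 0.251 to 0.413 and 0.442 in the ZMYND8 line. In the transient experiment it was 0.212 and 0.234 in control, 0.362 and 0.380 in doxorubicin and 0.387 and 0.382 in labelled ZMYND8. In all 3 settings the 48 h libraries lay above their undosed libraries in this ratio. PSME2 was divided by 3582 bases of exon (793 in its main transcript) and PSME1 by 1776 (965 in its main transcript). The ratio therefore describes differences between libraries and not how much of each partner was present.

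**Figure D2:**
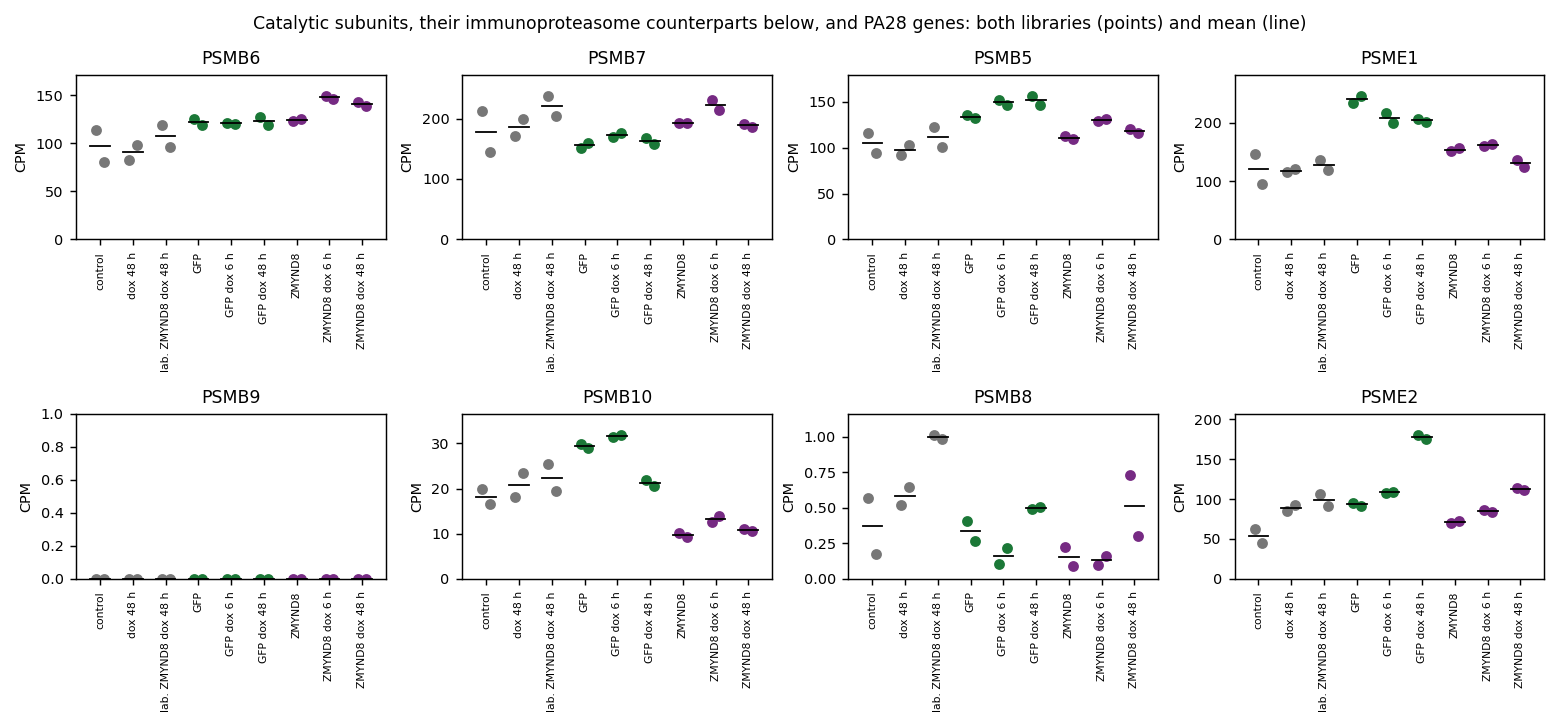
CPM of the catalytic beta genes, their immunoproteasome counterparts and the PA28 genes by condition, each point 1 library and each line the mean of 2, on a y axis that starts at 0. PSMB10 is lower in every ZMYND8 library (9.28 to 13.8 CPM) than in every GFP library (20.6 to 31.8 CPM), and PSME2 is highest in GFP at 48 h (179.9 and 175.0 CPM).

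The 3 promoters below belong to the inducible members described above, and are shown because PSME1 and PSME2 are neighbours that moved apart and PSMB10 carried the largest difference between lines. They are RefSeq sequences of GRCh38.p14, 250 bases upstream of the RefSeq start, with matches to TGACNNNGC (the CNC-Maf type bound by NFE2L1 and NFE2L2) or to the interferon type motif (GAAA, any 2 bases, GAAA) in capitals. They cover chr14:24135944-24136193 on the plus strand for PSME1, chr14:24146611-24146860 on the minus strand for PSME2 and chr16:67936851-67937100 on the minus strand for PSMB10.
PSME1: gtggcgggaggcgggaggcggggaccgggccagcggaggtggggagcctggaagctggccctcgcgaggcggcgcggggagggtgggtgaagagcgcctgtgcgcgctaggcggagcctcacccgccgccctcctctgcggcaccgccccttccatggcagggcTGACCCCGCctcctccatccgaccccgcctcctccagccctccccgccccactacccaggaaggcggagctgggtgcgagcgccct
PSME2: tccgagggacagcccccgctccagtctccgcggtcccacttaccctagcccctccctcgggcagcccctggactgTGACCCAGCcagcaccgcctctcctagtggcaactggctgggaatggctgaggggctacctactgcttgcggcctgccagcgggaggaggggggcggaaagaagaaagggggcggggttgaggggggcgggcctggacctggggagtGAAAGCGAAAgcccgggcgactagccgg
PSMB10: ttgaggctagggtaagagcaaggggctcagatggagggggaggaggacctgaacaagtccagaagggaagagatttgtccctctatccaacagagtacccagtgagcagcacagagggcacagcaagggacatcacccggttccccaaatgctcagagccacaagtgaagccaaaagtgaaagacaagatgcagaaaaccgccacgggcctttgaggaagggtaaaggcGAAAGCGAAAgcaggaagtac
The match of PSME1 to TGACNNNGC begins 86 bases before the start. PSME2 holds TGACNNNGC at 175 and the interferon type motif at 28 bases before it, and PSMB10 holds the interferon type motif at 21 bases before it.

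RefSeq promoters were matched for 42 of the 48 members, all but PSMA7, PSMB1, PSMB6, PSMB7, PSMD4 and PSMG3. Searched on both strands, TGACNNNGC was in 11 of the 42 (26.2%), beside 11% of all 27167 promoters, and CCGGAAG, an ETS type motif, was in 10 (23.8%), beside 8.78%. CCAAT was in 18 (42.9%, beside 33.1%), the interferon type motif in 5 (11.9%, beside 3.07%) and TTCNNNGAA, the GAS type, in 5 (11.9%, beside 6.78%). The 5 with the interferon type motif were PSMA4, PSMB4, PSMB10, PSME2 and PSMG4. A match describes the letters in this window and no binding was measured.

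At 6 h of doxorubicin most members were higher in both lines. Differences were tested with edgeR's quasi-likelihood test on all libraries of an experiment together, with Benjamini-Hochberg adjustment over all genes tested, and a gene was called at an adjusted p of up to 0.05. In the GFP line 30 members rose and 1 fell of 45, where 22.1% of all genes tested rose and 25.8% fell, and in the ZMYND8 line 34 rose and 0 fell, where 21.8% rose and 19% fell. The median log2 fold change of the members was 0.20 in the GFP line (−0.05 over all genes) and 0.26 in the ZMYND8 line (−0.01 over all genes), so most rises were small. In all, 27 members rose in both lines, 90.0% of those called in GFP and 79.4% of those called in ZMYND8, and no member was called in opposite directions. Across all genes, 72.6% and 73.7% of the rises were shared, and 156 of the 18801 tested were called in opposite directions. That 0 of 45 members were is near that share. These 2 comparisons share no library.

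By role, the calls at 6 h took in nearly all of the 19S cap and a part of the core. All 6 ATPases rose in both lines (median log2 fold change 0.21 in GFP and 0.31 in ZMYND8), as did 10 of 11 non-ATPase subunits in GFP and 11 of 11 in ZMYND8. Of the alpha ring, 2 of 7 rose in GFP and 4 of 7 in ZMYND8, and of the constitutive beta subunits 4 of 7 and 6 of 7. Of the core chaperones 2 of 4 rose in each line. The alpha ring includes the 3 genes with lost read pairs, none of which was called in either line, and the difference between cap and core was not tested.

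PSME3, the nuclear PA28 gamma gene, rose most at 6 h in both lines. It was at 184.3 and 179.2 CPM in GFP and 322.8 and 309.3 CPM at 6 h, a log2 difference of 0.80 (SE 0.0423, adjusted p = 1.02e-14), and at 215.0 and 222.8 CPM in ZMYND8 and 340.3 and 329.8 CPM at 6 h, a log2 difference of 0.61 (SE 0.0416, adjusted p = 3.81e-12). PSMG1, a core assembly chaperone, was at 41.1 and 41.5 CPM in GFP and 64.7 and 58.7 CPM at 6 h (log2 fold change 0.58, SE 0.0582, adjusted p = 3.14e-09), and at 64.3 and 61.8, then 85.6 and 83.6 CPM in ZMYND8 (0.43, SE 0.0528). The lid subunits PSMD12 and PSMD11, scaffold proteins of the 19S cap, followed in the GFP line. PSMD12 went from 123.2 and 123.0 to 179.3 and 187.1 CPM (0.57, SE 0.0445, adjusted p = 2.18e-11) and PSMD11 from 173.8 and 178.2 to 247.9 and 248.8 CPM (0.50, SE 0.0399, adjusted p = 4.25e-11). The core chaperone gene PSMG4 went from 21.5 and 20.5 to 30.6 and 28.5 CPM (0.49, SE 0.0796, adjusted p = 8.14e-06).

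In the ZMYND8 line other members came next at 6 h. The ATPase PSMC6 went from 99.0 and 97.2 to 146.9 and 136.0 CPM (log2 fold change 0.53, SE 0.0469, adjusted p = 5.69e-10), and PSMB3, a non-catalytic beta subunit, from 108.2 and 113.7 to 156.7 and 154.6 CPM (0.49, SE 0.0562, adjusted p = 6.29e-08). PSMB10 rose by 0.45 (SE 0.102, adjusted p = 7.14e-04) from its low starting level, while in the GFP line its difference was 0.11 (SE 0.0801, adjusted p = 0.281). PSME1 was the only member of the 45 tested that fell at 6 h, in the GFP line, by 0.21 on the log2 scale (SE 0.0468, adjusted p = 4.90e-04). Its libraries did not overlap there, and in the ZMYND8 line its difference was 0.08 (SE 0.0485, adjusted p = 0.212).

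At 48 h the members' calls went both ways. In the GFP line 21 rose and 10 fell of 45, where 32.4% of all genes rose and 31.8% fell, and in the ZMYND8 line 23 rose and 8 fell, where 31.6% rose and 30.8% fell. The members' median log2 fold change was 0.15 in GFP (0.03 over all genes) and 0.17 in ZMYND8 (0.05 over all genes). Scaling to total counts instead of TMM moved the median of all genes to 0.27 in GFP and 0.25 in ZMYND8, and the members' calls to 35 higher and 5 lower (87.5% higher, against 67.7% with TMM) and to 34 higher and 6 lower (85.0%, against 74.2%). Of all called genes 68.1% were higher in GFP with total counts (50.4% with TMM) and 66.9% in ZMYND8 (50.6% with TMM). Between the lines 17 members rose in both, 7 fell in both and none was called in opposite directions. Of all 18801 genes tested 4277 rose in both, 4476 fell in both and 560 were opposite, a share so small that few opposite calls would fall among 45 members.

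With TMM scaling the groups of the complex differed at 48 h. Of the 6 ATPases 5 rose in each line and none fell, with a median log2 fold change of 0.34 in both. Their summed level went from 754.7 ± 6.15 CPM (SD, n = 2) in GFP to 887.9 ± 0.87 at 6 h and 1018.8 ± 11.9 CPM at 48 h, and from 893.3 ± 3.87 to 1106.8 ± 16.7 and 1124.5 ± 12.5 CPM in ZMYND8. The alpha ring went from 874.5 ± 24.6 to 934.0 ± 4.13 and then 779.5 ± 11.8 CPM in GFP, and from 867.4 ± 6.4 to 988.2 ± 35.7 and 798.9 ± 2.8 CPM in ZMYND8, below its undosed level in both lines at 48 h. With total counts this turned, from 826.8 ± 23.2 to 872.8 ± 9.83 CPM at 48 h in GFP and from 842.1 ± 15.7 to 893.3 ± 11.4 CPM in ZMYND8. The non-ATPase subunits ended at 2425.5 ± 45.1 CPM in GFP, above their undosed 2011.1 ± 4.27 CPM, while in ZMYND8 they peaked at 3063.1 ± 18.9 CPM at 6 h and were back at 2473.9 ± 11 CPM at 48 h, beside 2521.7 ± 16.1 CPM undosed, which total counts also turned (2448.1 ± 11.9 CPM undosed and 2765.9 ± 13.5 CPM at 48 h). These sums weigh the most abundant genes most and were not tested.

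**Figure D3:**
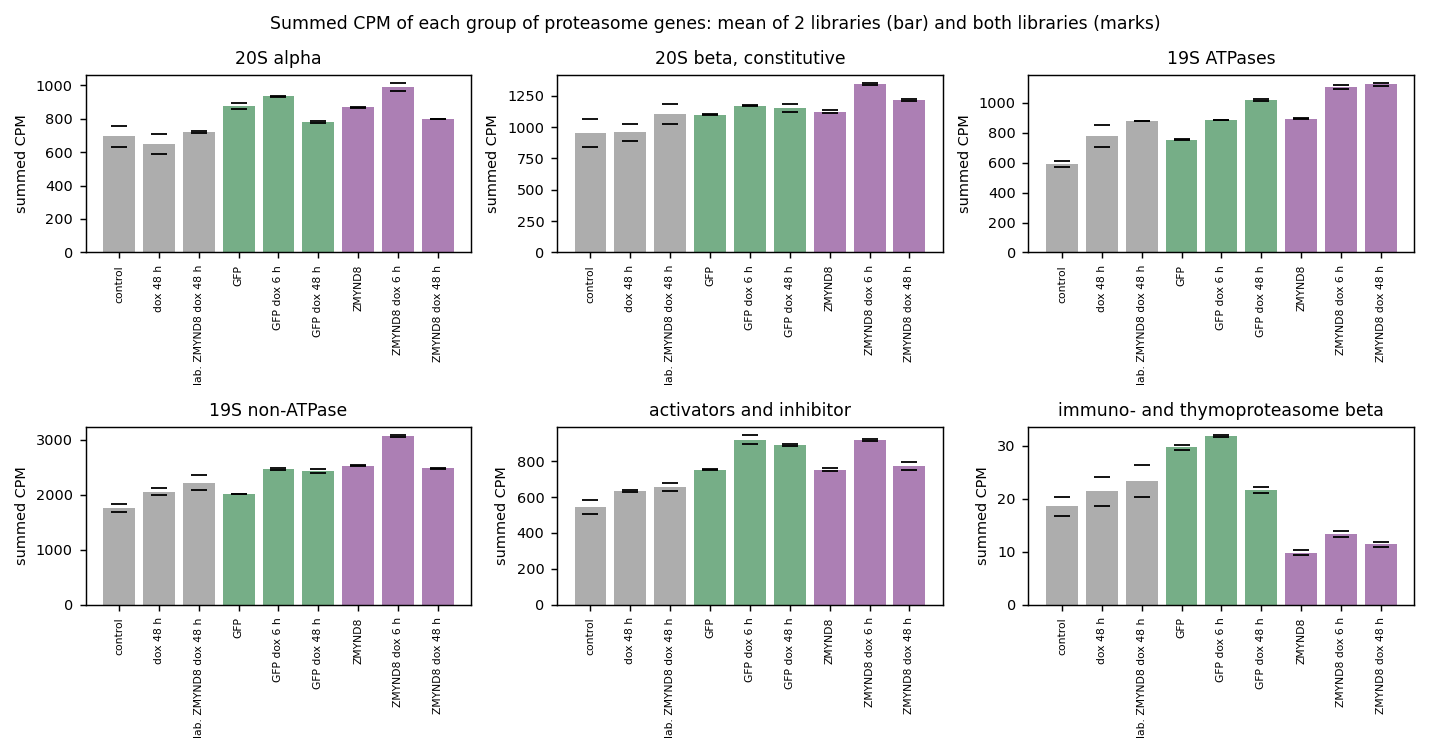
Summed CPM (y axis) of 6 role groups by condition (x axis), each bar the mean of 2 libraries and each mark 1 library. ATPases in the GFP line step up from 754.7 to 887.9 and 1018.8 CPM over 0, 6 and 48 h, whereas the alpha ring ends at 779.5 CPM, below its start with TMM scaling and above it with total counts.

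PSME2 rose most in the GFP line at 48 h, by 0.93 on the log2 scale (1.90-fold, SE 0.0433, adjusted p = 2.11e-16), and by 0.66 in the ZMYND8 line (1.58-fold, SE 0.0456, adjusted p = 1.00e-12). Its partner PSME1 fell by 0.23 on the log2 scale in each line (SE 0.0463 and 0.0486, adjusted p = 8.57e-05 and 1.52e-04), but with total counts the GFP value was 0.01. PSMC5, an ATPase of the 19S ring, went from 139.2 and 134.2 to 218.3 and 227.4 CPM in GFP (log2 fold change 0.70, SE 0.0430, adjusted p = 6.15e-14) and from 165.1 and 168.1 to 234.1 and 220.4 CPM in ZMYND8 (0.45, SE 0.0421, adjusted p = 5.25e-10). PSMG3, another core chaperone, went from 31.9 and 31.4 to 49.2 and 46.6 CPM in GFP (0.60, SE 0.0766, adjusted p = 1.37e-07). PSME3 and PSMD12 were also higher there, by 0.59 (SE 0.0422) and 0.58 (SE 0.0439).

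Among the falls at 48 h was PSMD14, the 19S deubiquitinase that cuts the ubiquitin chain off a substrate. It was at 105.7 and 108.5 CPM in GFP, 119.8 and 120.9 CPM at 6 h and 70.8 and 69.1 CPM at 48 h, and at 127.6 and 130.3, 149.4 and 141.1, and 78.1 and 78.2 CPM in the ZMYND8 line. It thus rose at 6 h in both lines (log2 fold change 0.17 in each, SE 0.0443 and 0.0427) and fell at 48 h, by 0.62 in GFP (1.53-fold lower, SE 0.0458, adjusted p = 4.01e-12) and 0.72 in ZMYND8 (1.65-fold lower, SE 0.0443, adjusted p = 8.36e-14). The alpha subunit PSMA7 fell from 373.3 and 355.0 to 276.2 and 268.0 CPM in GFP (by 0.42, SE 0.0402) and from 386.9 and 374.9 to 279.7 and 285.9 CPM in ZMYND8 (by 0.43, SE 0.0400), and the beta subunit PSMB1 from 250.7 and 247.7 to 190.9 and 186.1 CPM in GFP (by 0.40, SE 0.0413). PSMB10 fell in GFP by 0.47 (1.39-fold lower, SE 0.0818, adjusted p = 1.47e-05). PSMA6, at 7.65 and 7.75 CPM in GFP and 4.22 and 4.71 CPM at 48 h, fell by 0.79 (SE 0.166, adjusted p = 1.80e-04), on the few read pairs that its overlap leaves countable.

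In the ZMYND8 line the falls at 48 h were led by PSME4, the PA200 gene (chromosome 2, 53864069 to 53970993, minus strand). It was at 184.8 and 174.2 CPM without doxorubicin, 170.4 and 169.5 CPM at 6 h and 99.2 and 97.8 CPM at 48 h, a fall of 0.86 on the log2 scale (1.82-fold lower, SE 0.0434, adjusted p = 1.27e-15). PSMD1, the largest 19S base subunit, was at 204.2 and 200.5, then 262.3 and 258.9, then 139.6 and 133.2 CPM, a fall of 0.57 at 48 h (SE 0.0409, adjusted p = 2.56e-12) after a rise of 0.37 at 6 h. PSMD7, the partner of PSMD14 in the lid, fell by 0.33 (SE 0.0463), from 124.2 and 133.8 to 100.6 and 104.6 CPM. Among its rises, PSMG1 (0.52, SE 0.0516) ended at 90.5 and 90.7 CPM and the beta subunit PSMB4 (0.47, SE 0.0456) at 278.6 and 268.2 CPM. PSMA2, again with few countable pairs, went from 6.20 and 5.47 to 8.17 and 8.47 CPM (0.52, SE 0.150, adjusted p = 3.96e-03). PSMB8, with 4 and 2 counts before and 18 and 7 counts at 48 h, was called with a fitted log2 fold change of 1.76 (SE 0.707, adjusted p = 0.0324), but it was not called by DESeq2, nor without the second undosed ZMYND8 library (1.19) or without the first 48 h library (0.98).

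**Figure D4:**
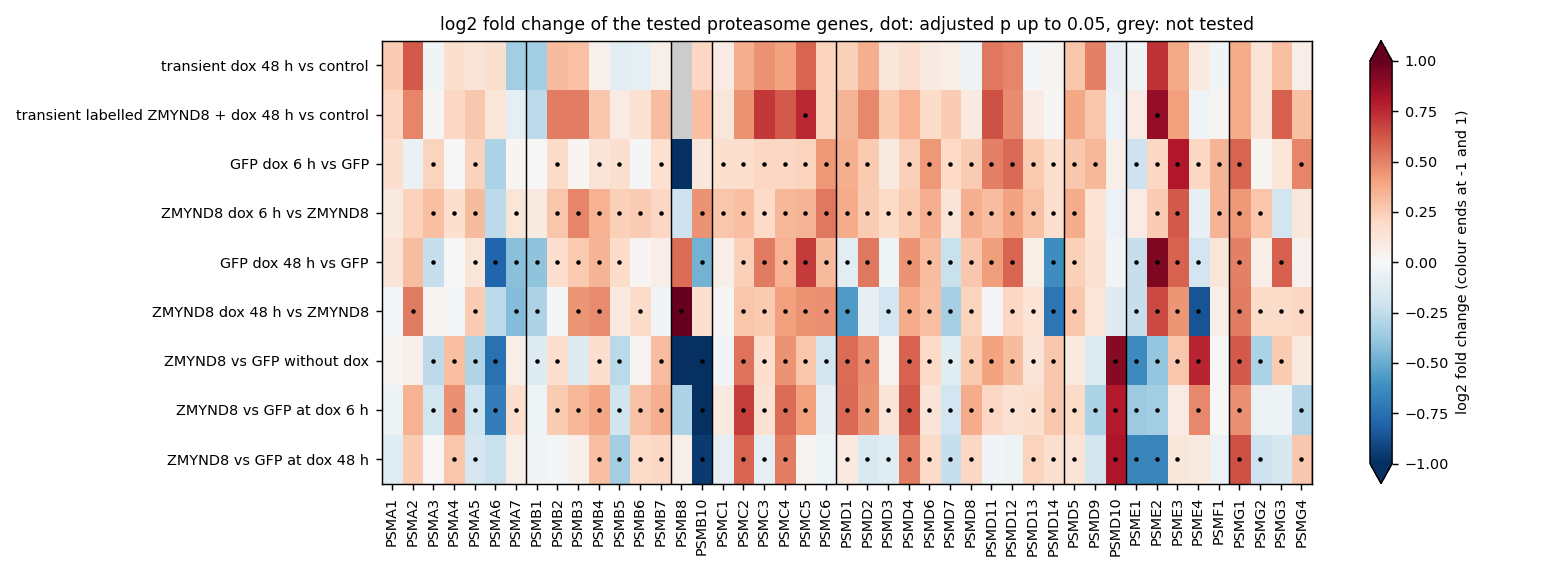
Log2 fold change of each tested member (columns, by role) in 9 comparisons (rows), coloured from blue (lower) to red (higher) with the scale ending at −1 and 1, a dot where the adjusted p was up to 0.05 and grey where not tested. The 6 h rows of the lines are almost wholly higher (30 and 34 called rises, 1 and 0 called falls), and the 48 h rows mix 21 and 23 rises with 10 and 8 falls.

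The lines with ZMYND8 and GFP were then compared at each time. Without doxorubicin 22 members were higher and 11 lower of 45 in the ZMYND8 line, where 28.7% of all genes were higher and 29.5% lower. At 6 h the counts were 25 and 10, where 28.9% were higher and 26.6% lower, and at 48 h they were 17 and 10, where 28.4% were higher and 31.6% lower. The members' median log2 fold change was 0.10, 0.15 and 0.03 (0.00, 0.00 and −0.04 over all genes). By role, 9 of 11 non-ATPase subunits were higher and 1 was lower without doxorubicin, 10 and 1 at 6 h, and 6 and 3 at 48 h, while of 7 alpha genes 1, 2 and 1 were higher and 3, 3 and 1 lower. These differences are between single selected lines.

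PSMD10, the 19S assembly chaperone known as gankyrin, was the most raised member at each time. It was at 47.1 and 48.1, 54.6 and 44.4, and 46.6 and 46.6 CPM in the GFP line over the 3 times and at 90.9 and 87.7, 87.6 and 83.7, and 80.1 and 83.2 CPM in the ZMYND8 line, so the lines lay far apart and doxorubicin called no difference in either. Its log2 fold changes between lines were 0.91 (1.87-fold, SE 0.0644, adjusted p = 1.87e-12), 0.79 (SE 0.0646) and 0.81 (SE 0.0626). PSMD4, a ubiquitin receptor, was at 129.8 and 121.1, 146.5 and 149.2, and 173.9 and 169.8 CPM in GFP and at 190.5 and 188.0, 232.1 and 222.0, and 242.2 and 248.4 CPM in ZMYND8, with log2 fold changes of 0.59, 0.62 and 0.51 (SE 0.0435, 0.0427 and 0.0412). PSMG1 was higher by 0.61 (SE 0.0577) without doxorubicin and 0.64 (SE 0.0512) at 48 h. The ATPase PSMC2, at 128.6 to 155.8 CPM in the GFP line and 188.8 to 242.2 CPM in the ZMYND8 line, was higher by 0.69 (SE 0.0416) at 6 h and 0.58 (SE 0.0405) at 48 h, and the ATPase PSMC4 by 0.56 (SE 0.0458) and 0.51 (SE 0.0439).

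PSMB10 was the lowest member relative to GFP at each time, with log2 fold changes of −1.61 (3.05-fold lower, SE 0.0928, adjusted p = 2.48e-14), −1.26 (2.40-fold lower, SE 0.0884, adjusted p = 1.77e-12) and −0.96 (1.95-fold lower, SE 0.0901, adjusted p = 4.69e-10). PSME1 was lower by log2 fold changes of −0.64, −0.36 and −0.65 (SE 0.0475, 0.0478 and 0.0474), and PSME2 by −0.39, −0.35 and −0.66 (SE 0.0471, 0.0459 and 0.0418). Thus PSMB10, PSME1 and PSME2, the interferon-inducible members with more than 20 counts per library, were lower with ZMYND8 at every time. Of all genes tested 29.5%, 26.6% and 31.6% were lower. PSMB8, tested on fewer than 20 counts per library, had log2 fold changes of −1.15, −0.31 and 0.06 and was not called. Of the constitutive catalytic genes, PSMB5 was lower (−0.27, −0.20 and −0.35, SE 0.0448, 0.0440 and 0.0430), PSMB7 higher (0.31, 0.36 and 0.21, SE 0.0454, 0.0449 and 0.0444) and PSMB6 at 0.03, 0.29 and 0.19 (SE 0.0448, 0.0445 and 0.0432), the first of which did not pass the test. PSMA6 was lower by −0.75 (SE 0.168) and −0.69 (SE 0.178) at the first times, PSMG2, a core chaperone, by −0.32 (SE 0.0496) without doxorubicin, PSMD9 by −0.32 (SE 0.104) at 6 h and PSMD7 by −0.23 (SE 0.0460) at 48 h.

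Without doxorubicin PSME4 and PSMD1 were also among the most raised members of the ZMYND8 line, by log2 fold changes of 0.76 (1.69-fold, SE 0.0439, adjusted p = 2.50e-14) and 0.56 (1.48-fold, SE 0.0416, adjusted p = 4.21e-12). PSME4 was at 108.7 and 102.9, 123.8 and 120.2, and 91.5 and 93.5 CPM in the GFP line, and at 48 h its difference between lines was 0.09 (SE 0.0451, adjusted p = 0.0843). PSMD1 was at 137.0 and 136.8, 178.8 and 172.3, and 129.2 and 124.6 CPM in the GFP line, with a difference of 0.57 (SE 0.0405) at 6 h and 0.10 (SE 0.0418, adjusted p = 0.0331) at 48 h. Both genes thus started higher in the ZMYND8 line and ended close to the GFP line.

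Whether doxorubicin acted differently in the lines was tested as an interaction of construct and drug. At 6 h, 5 members responded more upward in the ZMYND8 line and 4 more downward of 45, where 7.86% and 5.52% of all genes did. With total counts the split was 3 and 7 (30.0% upward, against 55.6% with TMM). Of all called genes 32.2% were upward with total counts, against 58.8% with TMM, so the members' shift was near that of all genes. At 48 h, 2 responded more upward and 11 more downward, where 12.7% and 15.8% of all genes did, with a members' median of −0.03 (−0.01 over all genes). The 11 comprised 4 of 11 non-ATPase subunits, 2 of 6 ATPases, 3 activators, 1 beta gene and 1 core chaperone.

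The largest of these at 48 h were in PSME4 (−0.67, SE 0.0629, adjusted p = 4.50e-09) and PSMD2 (−0.61, SE 0.0502, adjusted p = 4.08e-10). PSMD2 was at 558.5 and 551.1, 673.8 and 656.0, and 808.6 and 797.9 CPM in the GFP line, rising at both times, and at 764.8 and 763.9, 903.5 and 916.4, and 723.2 and 723.9 CPM in the ZMYND8 line, where it rose at 6 h and differed from its start by −0.08 at 48 h (SE 0.0354, adjusted p = 0.0540). PSMD11 was at 173.8 and 178.2, 247.9 and 248.8, and 236.3 and 234.2 CPM in GFP, and at 229.7 and 236.1, 282.1 and 293.8, and 232.2 and 227.8 CPM in ZMYND8 (interaction −0.44, SE 0.0554, adjusted p = 6.68e-07). PSMD1 (−0.46, SE 0.0589) and PSMG3 (−0.42, SE 0.107) were next. In the other direction stood PSMB10 (0.64, SE 0.131, adjusted p = 4.08e-04), which fell in GFP and differed by 0.17 in ZMYND8 (SE 0.103, adjusted p = 0.150), and PSMA3, an alpha subunit (0.26, SE 0.0630, adjusted p = 2.30e-03). At 6 h the largest interactions were in PSMB3 (0.46, SE 0.0802, adjusted p = 2.09e-04), PSMG4 (−0.39, SE 0.113, adjusted p = 0.0209), PSME1 (0.29, SE 0.0674, adjusted p = 4.26e-03) and PSME4 (−0.28, SE 0.0619, adjusted p = 2.38e-03). Since the comparisons between lines and those of doxorubicin share libraries, these values do not add independent evidence to the former.

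**Figure D5:**
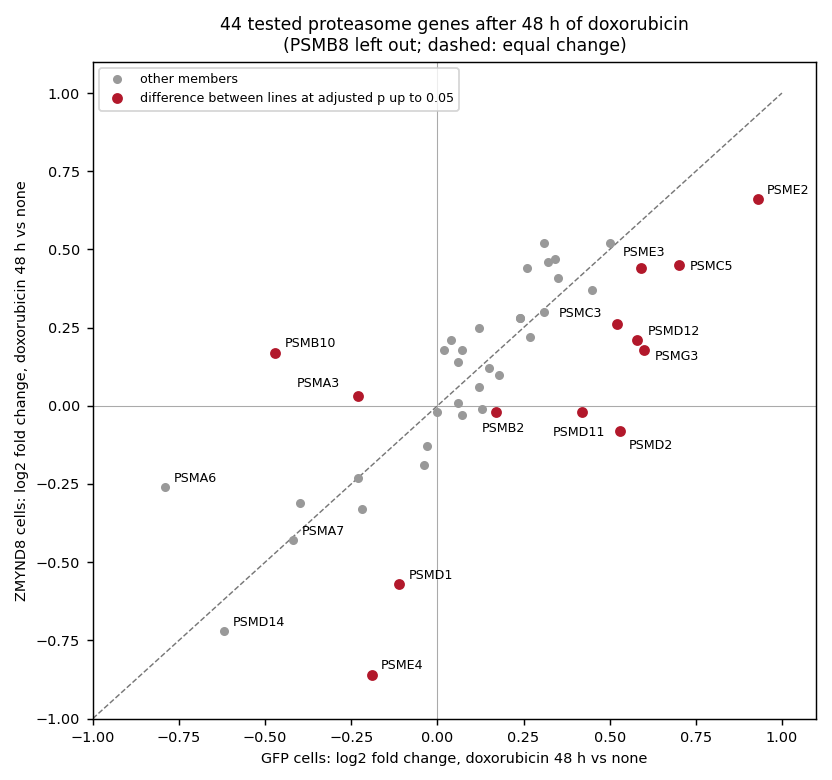
Log2 fold change at 48 h of doxorubicin in the GFP line (x axis) and in the ZMYND8 line (y axis) for the tested members other than PSMB8, with the 13 members whose interaction was called in red and the diagonal marking equal change. PSME4 and PSMD2 lie farthest below the diagonal and PSMB10 above it.

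In the transient experiment few members passed the test. For doxorubicin against control 0 of 44 members were called with edgeR, where 2.98% of all genes were higher and 2.15% lower, although 34 had log2 fold changes above 0 (median 0.16, 0.00 over all genes), 3 had an unadjusted p of up to 0.05, and DESeq2 likewise called 0. With a replicate block (same-numbered transient libraries deviated together) 3 were higher, and the shares of all genes under a block are not given here. For labelled ZMYND8 with doxorubicin against control 2 were higher and 0 lower, where 3.85% and 2.97% of all genes were, with a median of 0.27 (0.00 over all genes), and with a replicate block 5 were higher. Between the labelled ZMYND8 and doxorubicin libraries 0.0% of all genes and 0 of 44 members were called, 0 had an unadjusted p of up to 0.05 among members, and DESeq2 and the replicate block called 0, but the second libraries of these conditions may be 1 sample. With 2 libraries a side the smallest p of an exact permutation test on 1 gene is 0.333 (2-sided).

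The 2 called were PSME2 and PSMC5, the genes that also led the rises of the GFP line at 48 h. PSME2 was at 62.6 and 44.5 CPM in control, 84.6 and 91.9 CPM in doxorubicin and 106.0 and 90.9 CPM in labelled ZMYND8. Its log2 fold change was 0.88 for labelled ZMYND8 (SE 0.220, adjusted p = 0.0386) and 0.72 for doxorubicin (SE 0.219, adjusted p = 0.0813). PSMC5 was at 111.4 and 109.1, 144.6 and 184.1, and 191.2 and 179.4 CPM, with log2 fold changes of 0.75 (SE 0.201, adjusted p = 0.0489) and 0.58 (SE 0.200, adjusted p = 0.119). In both genes every dosed library lay above both controls. PSMC5 overlaps FTSJ3 on the opposite strand over 13.7% of its main transcript, which transient counts cannot separate, and no call was kept without the second control library, without either labelled ZMYND8 library, or without the second replicate of both dosed conditions, which hold the closest pair of libraries. PSMB10, at 19.8 and 16.5, 18.1 and 23.5, and 25.4 and 19.4 CPM, PSME1, at 146.2 and 94.5, 115.8 and 120.0, and 135.9 and 118.2 CPM, and PSME4, at 66.8 and 84.6, 89.4 and 73.3, and 81.3 and 65.8 CPM, overlapped between conditions. The standard errors of PSMC5, PSME2, PSME1 and PSMB10 against control ran from 0.200 to 0.262 here. For 48 h against no doxorubicin in the GFP line they were 0.043 for PSMC5, 0.0433 for PSME2 and 0.0818 for PSMB10.

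Genes that work with the proteasome but carry other names were counted beside it. Of 10 26S parts and partners, 6 rose and 1 fell at 6 h in GFP and 7 rose in ZMYND8, where 22.1% and 21.8% of all genes rose, against 2 and 7, and 3 and 5, at 48 h, where 32.4% and 31.6% rose and 31.8% and 30.8% fell. POMP, the core maturation factor, rose by 0.15 (SE 0.0491) in GFP and 0.36 (SE 0.0467) in ZMYND8 at 6 h, and ADRM1, a ubiquitin receptor of the cap, by 0.31 (SE 0.0530) and 0.36 (SE 0.0516). Between the lines 8, 9 and 9 of the 10 were higher with ZMYND8 at the 3 times and 1, 0 and 0 lower, where 28.4% to 28.9% of all genes were higher and 26.6% to 31.6% lower. Of 7 regulators, NFE2L1, the factor known to drive proteasome genes when the proteasome is inhibited, was lower in the ZMYND8 line by −0.63, −0.58 and −0.63 (SE 0.0374, 0.0371 and 0.0373), and its partner MAFK was higher by 1.43, 0.96 and 0.95 (SE 0.0484, 0.0496 and 0.0446). In that list of 7 regulators 6, 4 and 6 were higher and 1, 1 and 1 lower, beside the same shares of all genes.

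Of 14 genes of ubiquitin supply and delivery, 6 rose and 3 fell in GFP at 6 h, where 22.1% of all genes rose and 25.8% fell. In ZMYND8 9 rose and 1 fell at 6 h, where 21.8% rose and 19% fell. At 48 h 4 rose and 8 fell in each line, rises near the share of all genes (32.4% and 31.6%) and falls above it (31.8% and 30.8%). Between the lines 8, 11 and 7 of the 14 were higher with ZMYND8 at the 3 times and 2, 2 and 3 lower. Of all genes 28.4% to 28.9% were higher and 26.6% to 31.6% lower. The polyubiquitin gene UBB rose at both times in both lines (0.35 to 0.48). Of 14 interferon and antigen processing genes 10 passed the filter in the inducible libraries, and TAP1, TAP2 and TAPBP, which lie in the MHC region with its lost counts, were among those that did not. Of the 10, 1 was higher and 8 were lower in ZMYND8 than in GFP without doxorubicin, 1 and 5 at 6 h, and 1 and 5 at 48 h, where 28.7%, 28.9% and 28.4% of all genes were higher and 29.5%, 26.6% and 31.6% lower. Under doxorubicin 3 rose and 5 fell at 6 h in GFP, where 22.1% of all genes rose and 25.8% fell. In ZMYND8 3 rose and 1 fell at 6 h (21.8% and 19% of all genes). At 48 h 3 rose and 3 fell in GFP (32.4% and 31.8%), and 7 rose and 1 fell in ZMYND8 (31.6% and 30.8%). The 48 h interaction called 5 as more upward in ZMYND8 and 1 as more downward (12.7% and 15.8%). Some of the 10, HLA-C among them, lie in the MHC region with its lost counts. IRF1, an interferon-induced activator of immunoproteasome genes, was lower by −0.75 (SE 0.0485) without doxorubicin and by −0.85 (SE 0.0455) at 6 h, and at 48 h its difference was 0.05 (SE 0.0447, adjusted p = 0.350). In the transient experiment IRF1 (1.21, SE 0.230, adjusted p = 0.0140) and HLA-C (1.06, SE 0.261, adjusted p = 0.0363) were called for labelled ZMYND8 with doxorubicin against control, and HLA-C lies in the MHC region.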

How the data were processed

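RNA sequencing covered 18 libraries of MDA-MB-231 cells (9 conditions, 2 replicates). The authors deposited raw counts per gene, made with featureCounts 1.6.4 (read pairs over exons, reverse-stranded, multi-mapping and ambiguous pairs left out) on GENCODE release 31 and hg38 per the file headers. The submitters' processing notes also list Trim Galore, HISAT2 and DESeq2, while the study's methods name TopHat, Bowtie2 and cuffdiff. The deposited counts were tested here with edgeR 4.0.16 (R 4.3.3): TMM scaling, filterByExpr, 1 mean per condition, all libraries of an experiment in 1 quasi-likelihood fit, and Benjamini-Hochberg adjustment over all 15697 (transient) or 18801 (inducible) genes tested. Standard errors are the size of the log2 fold change divided by the square root of F. CPM used TMM-scaled totals. The fit was tested on simulated counts first. Depth, from 5729294 to 24713822 counts, sets the precision of the low genes.

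Per comparison, up to 5 members with the largest rise and 5 with the largest fall among those called were named, besides PSMB5 to PSMB10, PSME1 and PSME2 and the members that could not be tested. The members and gene lists were chosen with earlier results of these data known. Alternatives were DESeq2 1.42.0, total-count scaling, no filter, a replicate block, the study's cutoffs (log2 fold change of 1 in the transient and 1.5 in the inducible experiment at an unadjusted p of up to 0.05) and leaving out each library. Same-numbered libraries deviated together in the transient experiment (correlations of deviations from the condition means 0.208 to 0.404 over the 3 pairs of conditions) and not in the inducible one (−0.0458 to 0.0216), and no label says what a number marks. Promoters came from RefSeq (GRCh38.p14). Results for a few listed genes are not reported here.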

Additional observations from a re-analysis of the deposited data

Results flagged for a closer look

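Doxorubicin's effect on 13 members differed between the ZMYND8 and GFP lines at 48 h by the edgeR interaction test, the value being the ZMYND8 change minus the GFP change on the log2 scale. It was −0.67 for PSME4 (PA200), −0.61 for PSMD2 and −0.46 for PSMD1 (scaffolds of the 19S base), −0.44 for PSMD11 and −0.37 for PSMD12 (19S lid), and −0.42 for the core chaperone gene PSMG3. The activator genes PSME2 and PSME3 stood at −0.27 and −0.16, the ATPases PSMC3 and PSMC5 at −0.26 and −0.26, and the beta gene PSMB2 at −0.18. The calls of PSME3 and PSMB2 were lost when some single libraries were left out. PSMA3 of the alpha ring (0.26) and PSMB10 of the immunoproteasome (0.64) went the other way.

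At 6 h the effect differed for 9 members. The core chaperone PSMG4 stood at −0.39, PSME4 at −0.28, PSMD11 at −0.19 and PSME3 at −0.19, while PSMB4 (0.22), PSMG2 (0.26), PSMB6 (0.27), PSME1 (0.29) and PSMB3 (0.46) responded more upward in the ZMYND8 line. Each line is 1 selected population, so these differences cannot be told apart from differences between lines.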

How the results depend on the processing

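With DESeq2, without a filter, with the deepest library thinned, and with the members of shared or lost counts left out (the latter 2 chosen after seeing the data), every total of called members stayed within 1.5 times its value in the report, but by direction the interaction at 6 h went from 5 higher and 4 lower to 3 and 4 with DESeq2 and to 3 and 6 without a filter, and at 48 h from 2 higher to 1 with members of shared counts left out. With total counts 1 member was called for transient doxorubicin against control, in place of 0, and PSME1 in GFP at 48 h turned from −0.23 to 0.01. The study's cutoffs, which ask for changes larger than nearly all of those here, left 0 called members for labelled ZMYND8 against control, for both doxorubicin times in GFP, for 6 h in ZMYND8, for ZMYND8 against GFP at 6 h and at 48 h, and for both interactions, and 1 each for ZMYND8 at 48 h (PSMB8) and for ZMYND8 against GFP without doxorubicin (PSMB10). Between 0.159% and 13.2% of all genes met them, and under those cutoffs 96 of 98 named values lost their call. With a replicate block 3 members were called for transient doxorubicin against control and 5 for labelled ZMYND8 against control, and no other total changed by more than 1.5 times. Leaving out 1 library, labelled ZMYND8 against control kept 0 to 1 calls, and 0 without the second replicate of both dosed conditions. The counts ran from 27 to 32 (6 h) and 28 to 31 (48 h) in GFP, 33 to 35 and 27 to 31 in ZMYND8, 29 to 34, 33 to 35 and 23 to 26 between lines at the 3 times, and 6 to 10 and 11 to 14 for the interactions. Of 460 such values of named members 425 kept their call, 35 lost it and 0 changed sign. The interaction calls at 6 h for PSMB4, PSMG2, PSMG4, PSMD11 and PSME3 were among those lost. At 48 h the interaction calls for PSMB2 and PSME3, which are outside those 460 values, were also lost without some single libraries. The cause of these shifts was not tested. Counts under about 20 per library limit PSMB8, PSMA8 and PSMB11.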
